A study of Mus musculus with 9 samples.

Results

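The genes described here are 40 genes of glycolysis and of the hypoxia response, taken as a list of names, in MA-10 cells, a clonal line from a mouse Leydig cell tumour that steps up steroid output when its cAMP is raised. A gene was measured where a probe of the deposited table carried its symbol and no other, and the brightest such probe was used. By that rule 36 of the 40 were found among 19938 genes. Gapdh, Gpi1, Eno1 and Pfkfb1 had no such probe here, and 25 probes listed Gapdh only together with other symbols. The 9 Affymetrix whole-transcript arrays form 3 groups of 3. Control cells received DMSO (0 µM forskolin, 0 mM AICAR), the second group 10 µM forskolin, and the third 10 µM forskolin with 1 mM AICAR. Treatment lasted 1.5 h in every group, in serum-free DMEM-F12, after growth in medium with horse serum. Forskolin switches on adenylyl cyclase and so raises cAMP, and AICAR is turned inside the cell into ZMP, which acts like AMP on the kinase AMPK, a sensor of low energy. AICAR without forskolin and low oxygen were not analysed here, so each AICAR value stands on a forskolin background. The labels do not say whether the replicates came from separate cultures, so a p-value here measures only the spread between these samples, which may be technical. The titles call the control untreated, while its treatment entry reads DMSO.

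Glycolysis turns glucose into pyruvate in the cytosol. Its flux is set largely by glucose transporters, hexokinase and phosphofructokinase-1, and the last of these is activated by fructose 2,6-bisphosphate, which the bifunctional Pfkfb enzymes make and break down. The hypoxia response runs through HIF, a pair of an oxygen-labile alpha subunit (Hif1a or Epas1) with Arnt. When oxygen is present, the prolyl hydroxylases Egln1 to Egln3 mark the alpha subunit and Vhl targets it for destruction, so HIF activity is governed largely at the protein level, which arrays do not measure. HIF targets include most glycolytic enzymes, the secreted factors Vegfa, Adm and Epo, and feedback genes such as Egln3.

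Median log2 values of the 9 arrays spanned 7.14 to 7.19, and with 3 arrays a group their number limits the precision. The spread was less even. The interquartile range was 3.349 and 3.341 in AICAR replicates 2 and 3, against 3.416 to 3.482 on the other arrays. The part of this narrower spread in the AICAR differences was not tested, beyond the alternative normalizations given below. The 7 Leydig cell markers with a probe (Star, Cyp11a1, Cyp17a1, Hsd3b1, Nr5a1, Fdx1 and Scarb1) had mean log2 values from 8.66 to 11.8. Insl3 and Lhcgr were not analysed here. Mean log2 values of markers of other cell types ran from 6.38 to 9.66 for Sertoli, 4.16 to 11.3 for germ, 4.81 to 7.68 for macrophage, 4.58 to 12.0 for endothelial and 6.54 to 7.92 for peritubular or fibroblast cells. Probes differ in brightness, so these levels are not set against each other. The Leydig markers' summed level on the linear scale was 14900 to 15000 with forskolin, 12100 to 12400 in control and 12000 to 12600 with AICAR. Some arrays stood apart for these genes. In forskolin replicate 1 only 5 of the 36 members were above their group mean, against 24 and 28 in the other 2 forskolin arrays. For replicates 1, 2 and 3 the counts were 23, 8 and 17 with AICAR and 9, 15 and 25 in control. Member means ran from a log2 value of 5.92 (Egln3) to 13.5 (Ldha), so all 36 pass a filter at a mean of 5. That filter lies below the lower quartile of every array (5.69 to 5.74), so passing it does not show that a gene is expressed. Egln3, Slc2a3, Car9 and Adm lay below the array median on every array. Member levels are not compared between genes either.

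**Figure D1:**
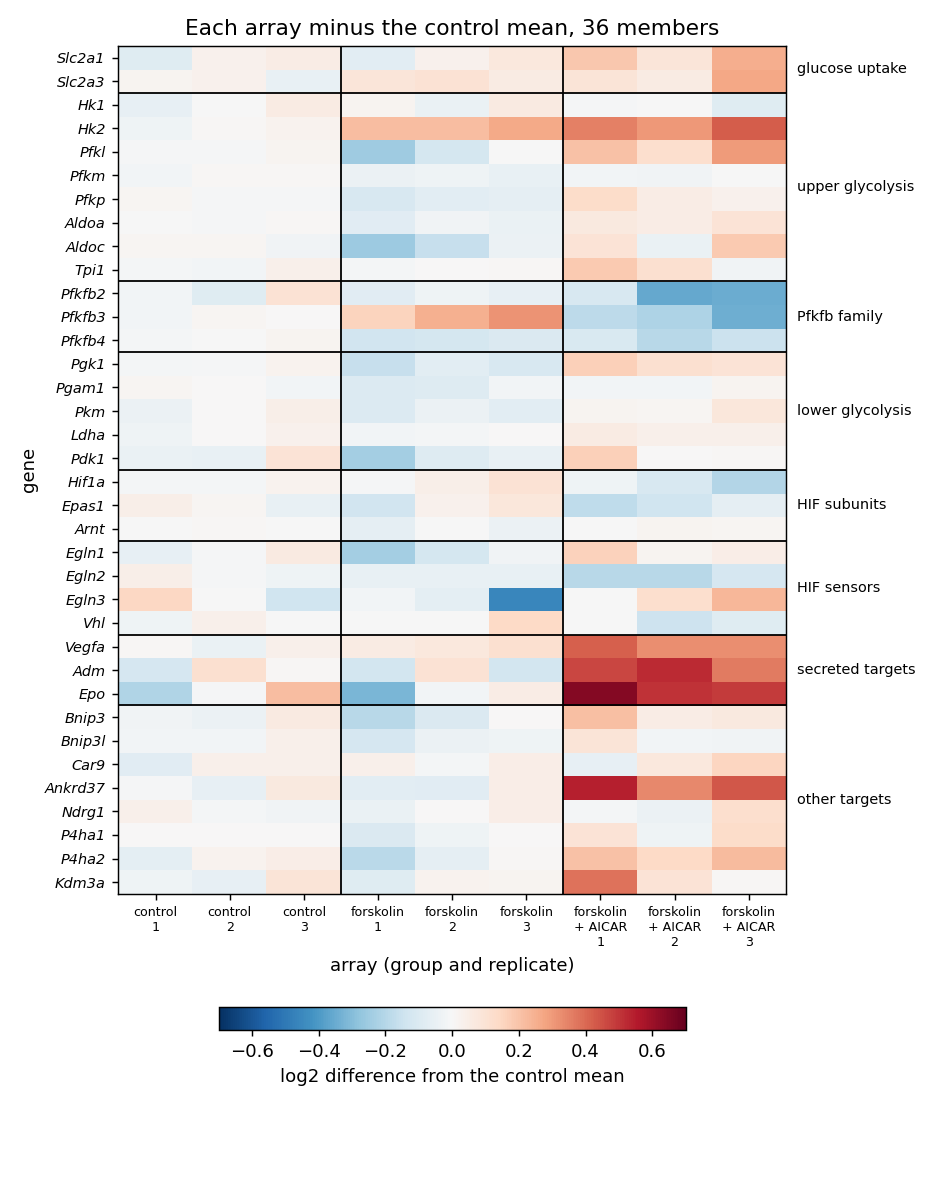
Log2 difference of each array (columns, 3 replicates a group) from the control mean for each of the 36 genes (rows, ordered by role), with red higher and blue lower. Adm, Epo, Vegfa, Ankrd37 and Hk2 are red in all 3 AICAR arrays, Pfkfb3 is red with forskolin and blue with AICAR, and Hk2 is the only gene called after forskolin alone.

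The first comparison asks what forskolin did to these genes. Hk2, the inducible hexokinase that phosphorylates glucose on entry, rose 1.18-fold. Its log2 values were 9.62, 9.66 and 9.67 in control and 9.87, 9.87 and 9.91 with forskolin, so the groups did not overlap (log2 difference 0.23, SE 0.04, adjusted p = 0.041). It was the only one of the 36 members called at an adjusted p under 0.05 in limma, and none was called lower. Over all genes 0.692% were called, 0.497% higher and 0.196% lower. Of the members, 4 reached an unadjusted p under 0.05 (7.3% of all genes did). The Hk2 call was lost without any 1 control or forskolin array or AICAR replicate 1 (adjusted p up to 0.19), and with median centring (adjusted p = 0.084), which turned the split over all genes from 99 higher and 39 lower to 86 and 61.

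Pfkfb3, whose product favours making fructose 2,6-bisphosphate, had log2 values of 8.53, 8.57 and 8.55 in control and 8.71, 8.80 and 8.86 with forskolin. All 3 forskolin arrays were above all 3 controls, and the difference (0.24, SE 0.05) was as large as that of Hk2, but it did not pass the test (adjusted p = 0.12). It passed only with array weights. Of the 36 differences after forskolin 26 were negative, and their median was −0.05, against 0.0034 over all genes. The forskolin arrays lay above all controls in 4 members and below in 10, while over all genes 6.85% lay above and 7.13% below. Differences not called lay between −0.18 (Egln3) and 0.24 (Pfkfb3). The 5 measured genes of lower glycolysis and pyruvate handling (Pgk1, Pgam1, Pkm, Ldha and Pdk1) were all on the negative side, with a median of −0.07, 1 at an unadjusted p under 0.05 and none called by limma. Without forskolin replicate 1, the array in which most members were low, the median of the 36 was −0.02.

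The second comparison asks what AICAR changed in cells that all received forskolin. Of the 36 members 7 rose and 1 fell, and 28 did not pass. Among all genes 5.10% were called, 0.978% higher and 4.12% lower (195 and 822 genes, which became 454 and 638 after quantile normalization and 359 and 655 after median centring). The genes that rose were the secreted factors Epo, Adm and Vegfa, the HIF target Ankrd37, the collagen hydroxylase subunit P4ha2 and the glycolytic enzymes Pfkl and Pgk1, and Pfkfb3 fell. The difference was positive in 28 members and negative in 8, with a median of 0.11 against 0.02 over all genes. The AICAR arrays lay above all forskolin arrays in 21 members and below in 4, while over all genes 11.5% lay above and 12.2% below. Only Epo changed by at least 1.5-fold. Some markers of cell types also moved with AICAR. Of the 7 Leydig markers 4 were called lower than with forskolin alone (Star by −2.05, Hsd3b1 by −0.59, Scarb1 by −0.35 and Fdx1 by −0.34), with a list median of −0.34. Of 8 peritubular and fibroblast markers, none was called by limma and 4 had an unadjusted p under 0.05, which 24.1% of all genes had. Their sum on the linear scale was 1100 to 1250 with AICAR, against 1030 to 1090 in the other 6 arrays. The sum of 8 endothelial markers was 4800 to 4870 with AICAR, against 4650 to 4760 in the other arrays, with none called and none at an unadjusted p under 0.05. Of 7 Sertoli markers Sox9 was called lower (−0.46), while 4 had positive differences and the list median was 0.11. The Sertoli sum was 1940 to 1970 with AICAR, 2070 to 2160 with forskolin and 2240 to 2280 in control. A linear sum gives most weight to its brightest probe, here Sox9, and Cdh5 in the endothelial list. It does not show that a list moved as a whole. Of 8 macrophage markers Cd68 was called lower (−0.39), and the list median was 0.08. Germ cell markers had none called, 1 at an unadjusted p under 0.05 and a median of 0.02. The part of these lists in the members' result was not tested. MA-10 is a clonal line, so the lists of other cell types are read as RNA levels and not as amounts of such cells. Bulk RNA does not tell fewer cells from less RNA per cell.

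Epo, which encodes the red cell hormone erythropoietin, showed the largest change of the members, 1.56-fold. Its log2 values were 8.79, 9.09 and 9.16 with forskolin and 9.75, 9.61 and 9.60 with AICAR (difference 0.64, SE 0.12, adjusted p = 0.014). All 3 AICAR arrays were above every other array, where control spanned 8.90 to 9.33. The call was lost without AICAR replicate 2 (adjusted p = 0.053). Adm, which encodes the vasodilator peptide adrenomedullin, went from 6.10, 6.33 and 6.10 to 6.70, 6.75 and 6.59, a 1.42-fold rise (0.50, SE 0.08, adjusted p = 0.0063). Control values of Adm were 6.11, 6.34 and 6.24 and overlapped forskolin. Every Adm value lay below the median of its array. Vegfa, the main angiogenic growth factor, went from 11.55, 11.57 and 11.61 to 11.91, 11.82 and 11.82, a 1.21-fold rise (0.28, SE 0.04, adjusted p = 0.0052). Its controls, at 11.51, 11.45 and 11.53, were the lowest of the 3 groups.

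Of the 8 members grouped here as other hypoxia targets, 2 were called, and all 8 differences were positive, with a median of 0.14. That grouping leaves out the glycolytic, Pfkfb and Egln genes, so it does not cover every HIF target of the list. All 3 measured Pfkfb genes had negative differences. Ankrd37, an ankyrin repeat protein known as a direct HIF target, had log2 values of 7.34, 7.29 and 7.42 in control, 7.28, 7.27 and 7.40 with forskolin and 7.90, 7.69 and 7.78 with AICAR. Control and forskolin overlapped and all AICAR arrays were higher, with a 1.39-fold rise over forskolin (0.47, SE 0.06, adjusted p = 0.0024). P4ha2, a catalytic subunit of the prolyl hydroxylase that matures collagen, went from 8.11, 8.24 and 8.30 to 8.50, 8.44 and 8.52 (0.27, SE 0.06, adjusted p = 0.025), with controls of 8.23, 8.32 and 8.34. Its adjusted p went up to 0.076, and the call was lost, when any of forskolin replicates 1 and 2 and AICAR replicates 2 and 3 was left out, and in a fit of the 2 groups alone it was 0.071. The mitophagy receptors Bnip3 and Bnip3l had differences of 0.20 (adjusted p = 0.099) and 0.08 (adjusted p = 0.29). The histone demethylase gene Kdm3a was at 10.09, 9.81 and 9.72 with AICAR against 9.63, 9.74 and 9.73, so that replicate 1 carried most of its difference of 0.17 (adjusted p = 0.25). P4ha1 differed by 0.11 (adjusted p = 0.21). For the carbonic anhydrase gene Car9 the difference was 0.03 (95% interval −0.10 to 0.16), and for Ndrg1, often used as a hypoxia marker, 0.02 (−0.09 to 0.13).

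HIF binds a short core in the regulatory DNA of many targets, so the bases before the transcription start were read for genes that rose with AICAR. RefSeq starts on the mouse assembly GRCm38.p6 were at hand for 32 of the 36 members (not for Bnip3l, Epas1, Slc2a3 and Ndrg1). The 250 bases before the most upstream start were searched for the 5-base core ACGTG or GCGTG on both strands, and a CACGTG counts on each strand. Of the 7 genes called higher with AICAR, 5 are printed, 5′ to 3′ on the gene's strand, namely those whose stretch ends at the start of the gene's RefSeq record and meets no other gene. Core letters of either strand are in capitals, so that CACGC and CACGT are the core read from the other strand.
Epo: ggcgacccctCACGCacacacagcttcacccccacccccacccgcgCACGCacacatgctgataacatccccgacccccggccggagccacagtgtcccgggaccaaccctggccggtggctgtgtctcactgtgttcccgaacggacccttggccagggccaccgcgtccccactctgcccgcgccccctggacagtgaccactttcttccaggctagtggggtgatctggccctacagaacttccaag
Vegfa: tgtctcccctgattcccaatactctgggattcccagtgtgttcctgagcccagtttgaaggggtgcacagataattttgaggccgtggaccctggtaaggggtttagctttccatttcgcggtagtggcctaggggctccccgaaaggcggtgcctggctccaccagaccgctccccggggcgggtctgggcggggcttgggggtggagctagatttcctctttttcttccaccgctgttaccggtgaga
P4ha2: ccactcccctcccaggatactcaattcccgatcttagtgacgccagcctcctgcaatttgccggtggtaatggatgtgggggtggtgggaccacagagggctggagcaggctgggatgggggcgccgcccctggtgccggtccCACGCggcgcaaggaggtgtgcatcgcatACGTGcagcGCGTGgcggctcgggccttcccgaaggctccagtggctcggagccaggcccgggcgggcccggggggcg
Pfkl: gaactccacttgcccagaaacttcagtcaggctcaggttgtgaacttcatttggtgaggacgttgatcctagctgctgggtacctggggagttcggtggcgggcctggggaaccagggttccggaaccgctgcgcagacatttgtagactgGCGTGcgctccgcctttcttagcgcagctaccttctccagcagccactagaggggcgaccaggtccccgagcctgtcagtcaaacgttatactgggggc
Pgk1: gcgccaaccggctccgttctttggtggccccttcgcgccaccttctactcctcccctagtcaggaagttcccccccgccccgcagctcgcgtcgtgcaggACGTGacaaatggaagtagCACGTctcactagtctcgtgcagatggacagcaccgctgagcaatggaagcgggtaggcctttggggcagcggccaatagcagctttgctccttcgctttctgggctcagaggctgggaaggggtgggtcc
These are, in RefSeq's GRCm38.p6 coordinates, chr5:137485817-137486066 on the minus strand for Epo, chr17:46032378-46032627 on the minus strand for Vegfa, chr11:54100674-54100923 on the plus strand for P4ha2, chr10:78009808-78010057 on the minus strand for Pfkl and chrX:106186850-106187099 on the plus strand for Pgk1. P4ha2 holds 3 matches, Epo and Pgk1 2 each, Pfkl 1 and Vegfa 0, which says only that these letters are not in that window.

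The core occurred in 26 of the 32 members (81.2%), a list that was itself made up largely of known HIF targets. It occurred in 46.4% of 15614 genes of the array. Among the 4907 of these whose GC content lay within the quartiles of the members (56.7% to 66.9%), it occurred in 59.9%. The members' shares in this paragraph cover all 32 windows whatever their GC content, so they are not matched for GC. Windows that fail the conditions set for printing are counted too. Those of Ankrd37 and Pfkfb3 do not end at the start of the RefSeq record, and that of Adm meets another gene. The members' windows were rich in G and C, with a median of 62.4% against 56.4% over the array's genes. Within the list the core did not separate the genes that rose: it was in 6 of the 7 called higher with AICAR and in 19 of the 24 not called. Ankrd37, also called higher with AICAR, held 4 matches and Adm 2. Hk2, which rose with forskolin, held 2 core matches and 1 match to TGACG, the core of the cAMP response element, and Pfkfb3 held 1 and 2. TGACG was found in 7 of the 32 members (21.9%), in 21.6% of the array's genes and in 28.1% of those within the members' GC quartiles. A match is a description of the sequence and not a bound site.

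**Figure D2:**
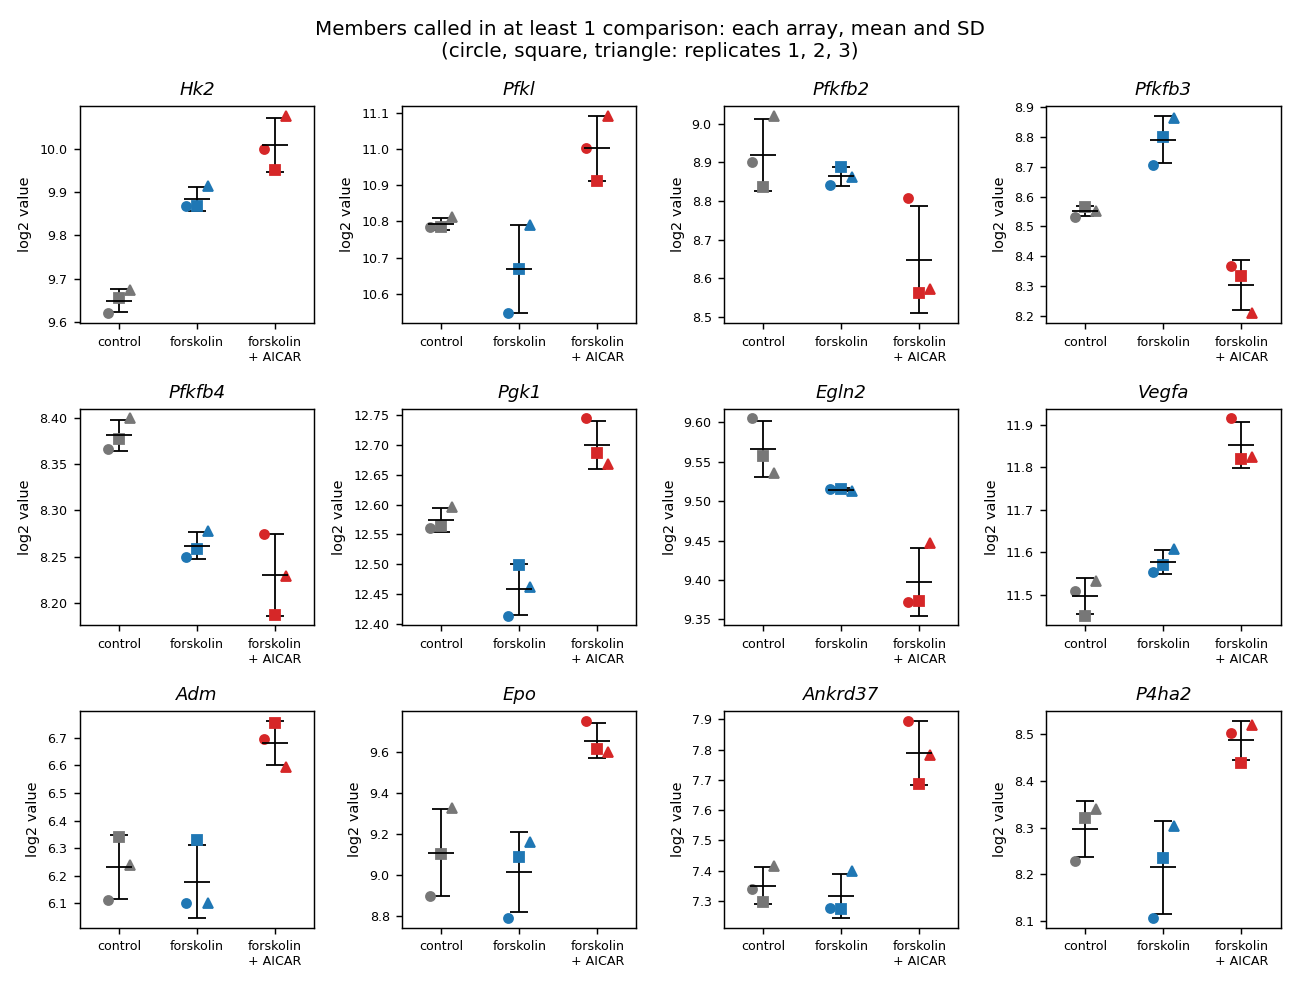
Log2 value on each array (circle, square and triangle for replicates 1, 2 and 3) with the mean and SD of 3 arrays, for the 12 genes called in at least 1 comparison, each on its own axis that does not start at 0. In Hk2, Pfkl, Pgk1, Adm, Epo, Vegfa, Ankrd37 and P4ha2 the 3 AICAR arrays are above the other 6. In Pfkfb2, Pfkfb3 and Egln2 they are below the other 6, and in Pfkfb4 they overlap the forskolin arrays.

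None of the genes for the HIF subunits, the Egln hydroxylases or Vhl was called between AICAR with forskolin and forskolin alone. In limma 1 of the 3 subunits had an unadjusted p under 0.05, as did all 4 genes for hydroxylation and degradation. Over all genes the share was 24.1%, and of these 4 differences 2 were positive and 2 negative. Hif1a had log2 values of 11.51, 11.51 and 11.55 in control, 11.52, 11.56 and 11.63 with forskolin and 11.49, 11.41 and 11.32 with AICAR. The AICAR arrays were below all others, yet the difference from forskolin (−0.16, SE 0.05) did not pass (adjusted p = 0.10), except with a trended prior, with array weights or without AICAR replicate 1. Epas1, the other alpha subunit, was at 10.55, 10.52 and 10.45 in control, 10.37, 10.53 and 10.58 with forskolin and 10.33, 10.37 and 10.44 with AICAR, and forskolin and AICAR overlapped (−0.12, SE 0.06, adjusted p = 0.25). Arnt, their shared partner, stayed within 11.52 to 11.60 on all 9 arrays, with a difference of 0.05 (95% interval −0.03 to 0.12). The hydroxylase genes differed in sign. Egln1 went from 10.16, 10.28 and 10.38 to 10.56, 10.42 and 10.45 (0.20, SE 0.06, adjusted p = 0.0995), with controls of 10.34, 10.39 and 10.46. Egln3, itself a HIF target, went from 5.92, 5.87 and 5.49 to 5.94, 6.06 and 6.18 (0.30, SE 0.12, adjusted p = 0.17), with controls of 6.09, 5.94 and 5.80, and 1 low forskolin array made up much of its difference. Egln2 was at 9.37, 9.37 and 9.45 with AICAR against 9.52, 9.52 and 9.51 (−0.12, SE 0.04, adjusted p = 0.11), with controls of 9.60, 9.56 and 9.54. Vhl, the substrate receptor of the ubiquitin ligase, was at 8.9997, 9.07 and 9.03 in control, 9.03, 9.03 and 9.17 with forskolin and 9.03, 8.89 and 8.95 with AICAR, and its groups overlapped (−0.12, SE 0.05, adjusted p = 0.20).

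In glycolysis, 2 enzymes rose with AICAR. Pfkl, the liver-type phosphofructokinase-1 subunit, went from 10.55, 10.67 and 10.79 to 11.001, 10.91 and 11.09, a 1.26-fold rise (0.33, SE 0.06, adjusted p = 0.019), with controls of 10.78, 10.78 and 10.81. Leaving out forskolin replicate 1, forskolin replicate 2 or AICAR replicate 3 ended the call (adjusted p up to 0.069), as did a fit of the 2 groups alone (adjusted p = 0.081). The other subunit genes of that enzyme had smaller differences, 0.15 for the platelet type Pfkp (SE 0.04, adjusted p = 0.0503) and 0.03 for the muscle type Pfkm (95% interval −0.05 to 0.10). Pfkp was called under 8 of the 18 other settings tried, among them without AICAR replicate 1 (adjusted p = 0.0495) and without AICAR replicate 3 (adjusted p = 0.049). Pgk1, which makes the first ATP of the pathway, went from 12.41, 12.50 and 12.46 to 12.74, 12.69 and 12.67, a 1.18-fold rise (0.24, SE 0.04, adjusted p = 0.0070), and its controls of 12.56, 12.56 and 12.60 lay between.

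The remaining enzymes had smaller differences than Pfkl and did not pass. The 8 measured genes of upper glycolysis had a median difference of 0.12 with 7 positive. The 5 of lower glycolysis had a median of 0.11 with all 5 positive. In all 5 the AICAR arrays lay above the forskolin arrays, which was so in 11.5% of all genes. Against control the AICAR arrays lay above in 2 of the 5, with a median of 0.04 and none called. Relative to forskolin alone, the aldolases Aldoa and Aldoc differed by 0.12 (adjusted p = 0.078) and 0.23 (adjusted p = 0.090). The isomerase Tpi1 differed by 0.09, the mutase Pgam1 by 0.06 and the pyruvate kinase Pkm by 0.11. The lactate dehydrogenase subunit Ldha differed by 0.05 and the pyruvate dehydrogenase kinase Pdk1 by 0.19. Slc2a1, the basal glucose transporter, was at 11.43, 11.54 and 11.58 with forskolin and 11.70, 11.59 and 11.76 with AICAR (0.17, SE 0.06, adjusted p = 0.14), and Slc2a3 differed by 0.06. Hk2 was at 10.00, 9.95 and 10.07 with AICAR, above all forskolin arrays, but that step (0.13, SE 0.04) did not pass (adjusted p = 0.12).

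**Figure D3:**
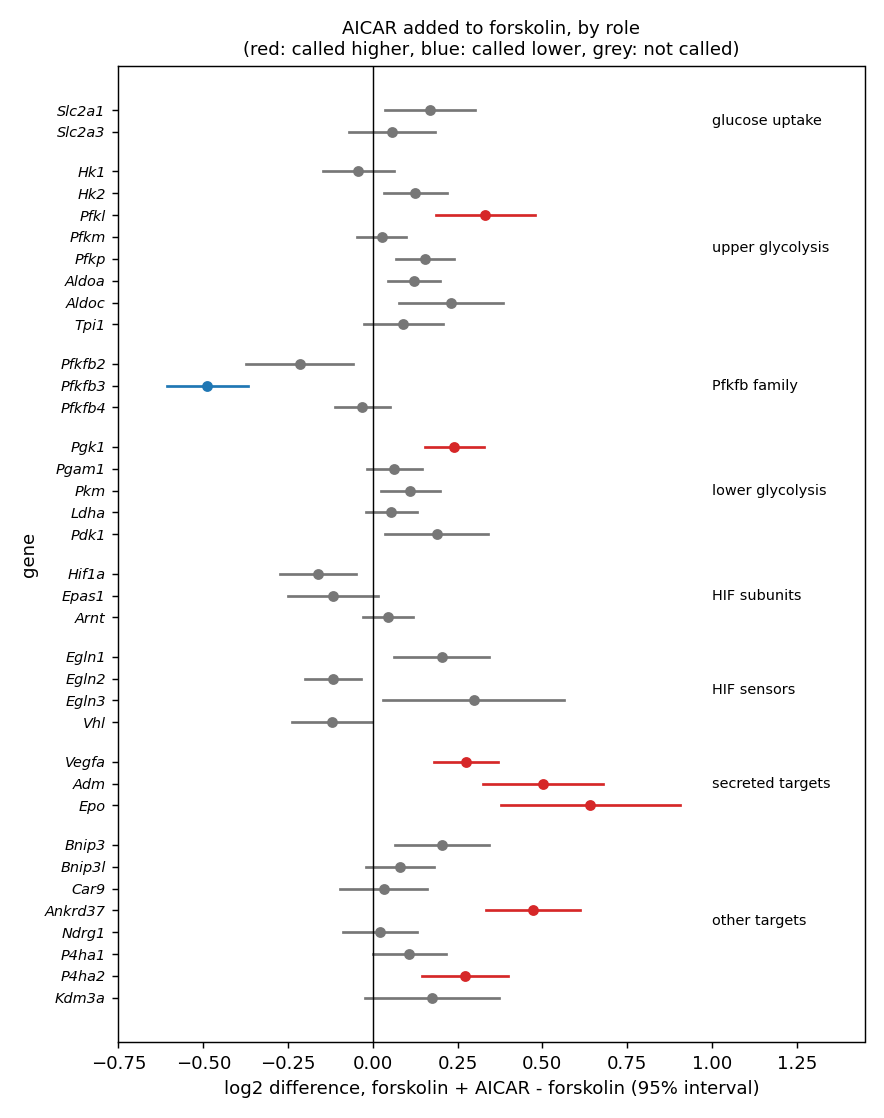
Log2 difference between forskolin with AICAR and forskolin alone for the 36 genes (points, grouped by role), with the 95% interval of the limma fit before adjustment over genes (lines). Red marks the 7 genes called higher, blue Pfkfb3, the only one called lower, and grey the 28 not called.

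All 3 measured Pfkfb genes had negative differences with AICAR, and 1 was called. Pfkfb3 fell 1.4-fold with AICAR, from 8.71, 8.80 and 8.86 to 8.37, 8.33 and 8.21 (−0.49, SE 0.05, adjusted p = 0.0011), and ended below all 3 controls. This call held under all 18 other settings (adjusted p up to 0.028), as did that of Ankrd37 (adjusted p up to 0.048). Pfkfb2, the heart-type isoenzyme, was at 8.84, 8.89 and 8.86 with forskolin and 8.81, 8.56 and 8.57 with AICAR, where replicate 1 was nearest to the forskolin arrays (−0.22, SE 0.07, adjusted p = 0.12). It was called lower without AICAR replicate 1, as was Hif1a, which makes 3 falls in place of 1. Pfkfb4 differed by −0.03 (95% interval −0.11 to 0.05).

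The third comparison sets forskolin with AICAR against control and shares its arrays with the other 2, so its values are given beside theirs and not as separate evidence. In it 5 members rose and 4 fell, where 3.04% of all genes were called higher and 5.68% lower (8.72% together). Over all genes 606 were higher and 1133 lower, and after quantile normalization 605 and 777. The AICAR arrays lay above all controls in 13 members and below in 6, with 15.2% above and 14.3% below over all genes. The rises were Hk2 (0.36, SE 0.04, adjusted p = 0.0013), Vegfa (0.36, SE 0.04, adjusted p = 0.0014), Ankrd37 (0.44, SE 0.06, adjusted p = 0.0034), Adm (0.45, SE 0.08, adjusted p = 0.0097) and Epo (0.55, SE 0.12, adjusted p = 0.024). For Hk2 the forskolin step was 0.23 and the AICAR step 0.13, and for Vegfa they were 0.08 and 0.28. For Ankrd37, Adm and Epo the forskolin step was slightly negative (−0.03, −0.05 and −0.10, none called). Pfkl, Pgk1 and P4ha2, called against forskolin, did not pass against control (0.21, 0.12 and 0.19, adjusted p = 0.077, 0.074 and 0.065), and in each the forskolin mean was below the control mean. The Epo call was lost without control replicate 1 or 2 or AICAR replicate 2 or 3 (adjusted p up to 0.073).

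The 4 falls against control were all 3 measured Pfkfb genes and the hydroxylase gene Egln2. Pfkfb2, with controls of 8.90, 8.84 and 9.02, fell by 0.27 on the log2 scale (SE 0.07, adjusted p = 0.046). Pfkfb3 fell by 0.25 (SE 0.05, adjusted p = 0.024). Pfkfb4, the testis-type isoenzyme, was at 8.37, 8.38 and 8.40 in control, 8.25, 8.26 and 8.28 with forskolin and 8.27, 8.19 and 8.23 with AICAR, and fell by 0.15 (SE 0.04, adjusted p = 0.035), where forskolin alone gave −0.12, not called. Egln2 fell by 0.17 (SE 0.04, adjusted p = 0.026). In all 4 the AICAR arrays lay below all controls. None of the 4 was called without control replicate 1, 2 or 3 or AICAR replicate 2, and none after quantile normalization of the deposited values, where Pfkfb3 came nearest (−0.18, adjusted p = 0.0507) and 7 members were called higher. With AICAR replicate 3 left out 1 was called (Egln2), and without forskolin replicate 1 or 2 there were 2 (Pfkfb3 and Egln2) and 1 (Pfkfb3). Without forskolin replicate 3 the Pfkfb2 call alone was lost (adjusted p = 0.065). Without AICAR replicate 1 all 4 were called, and Hif1a too (−0.16, adjusted p = 0.043).

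**Figure D4:**
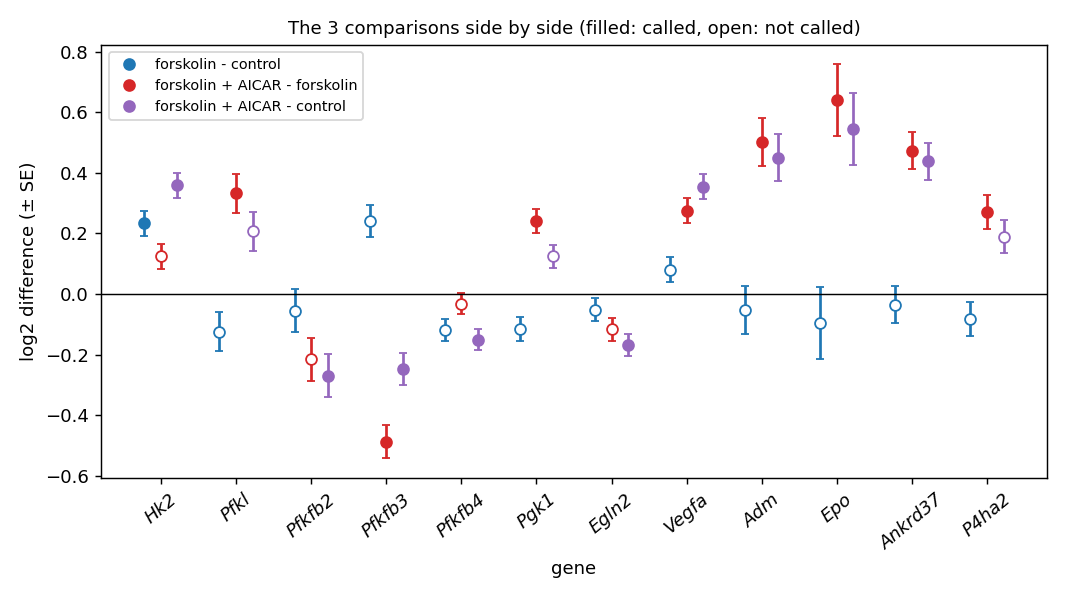
Log2 difference with its SE in the 3 comparisons for the 12 genes called in at least 1 of them, with filled points where called. Hk2 is positive in all 3, Pfkfb3 changes sign between forskolin (0.24) and added AICAR (−0.49), and Epo, Adm and Ankrd37 are near or below 0 with forskolin alone and positive in both comparisons with AICAR.

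Of the 36 genes 6 had more than 1 probe. The 3 Pgk1 probes each gave a difference of 0.24 between AICAR with forskolin and forskolin, and 2 of them had identical values on every array, as did 2 of the 3 Pgam1 probes (0.05, against 0.06 for the brightest). Signal from near-identical gene copies may be shared between such probes. The second probes of Bnip3, Bnip3l and Pkm gave 0.26, 0.10 and 0.19, all on the side of the brightest probe, which gave 0.20, 0.08 and 0.11. Against control with both agents the Pkm probes gave 0.04 and 0.20 and those of Bnip3 0.11 and 0.20, and after forskolin alone the Pkm probes differed in sign (−0.07 and 0.0039). For Hk1, the housekeeping hexokinase, the brightest probe gave −0.04 and cites 1 accession, while the second, which cites 8, gave 0.12, so the direction for Hk1 depends on the probe. With the mean of all probes of a gene, 8 members were called higher with AICAR and 1 lower.

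Other genes of the same pathways were read from a glucose list (glycolysis, gluconeogenesis and pyruvate handling, 40 of 44 genes with a probe) and a hypoxia list (37 of 39). With forskolin 1 glucose gene rose and 1 fell, and 2 hypoxia genes rose. Txnip, which restrains glucose uptake, fell by 2.33 on the log2 scale (SE 0.14, adjusted p = 3.79e-05), from 10.23, 10.47 and 10.57 to 7.77, 8.34 and 8.19. G6pc, which releases glucose from glucose 6-phosphate, rose by 0.63 (SE 0.07, adjusted p = 0.0034). The repressor gene Bhlhe40 rose by 0.90 (SE 0.07, adjusted p = 0.00023) and the mTORC1 inhibitor gene Ddit4 by 0.32 (SE 0.05, adjusted p = 0.018). These differences from control were larger than those of the 36 members, the largest of which was 0.24.

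With AICAR added to forskolin, 2 of the 40 glucose genes rose and 2 fell, and of the 37 hypoxia genes none rose and 1 fell. In limma 8 of the 40 (20.0%) and 11 of the 37 (29.7%) had an unadjusted p under 0.05, near the 24.1% over all genes. Slc16a3, the lactate exporter and a HIF target, rose by 0.35 (SE 0.06, adjusted p = 0.014), from 10.31, 10.48 and 10.55 to 10.79, 10.72 and 10.88, with controls of 10.56, 10.57 and 10.58. Txnip rose by 1.02 (SE 0.14, adjusted p = 0.0026), to 9.21, 9.09 and 9.07, still below all controls. G6pc fell by 0.80 (SE 0.07, adjusted p = 0.00041), to 7.06, 6.99 and 6.78, and like Pfkfb3 ended below its controls of 7.10, 7.13 and 7.11. The phosphatase gene Pdp1, whose product activates pyruvate dehydrogenase, fell by 0.22 (SE 0.04, adjusted p = 0.012), and Cited2, which competes with HIF for its coactivator, fell by 0.23 (SE 0.03, adjusted p = 0.0056). The median difference was 0.03 in the glucose list and 0.05 in the hypoxia list, against 0.11 in the 36 members and 0.02 over all genes.

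Against control, forskolin with AICAR left 2 glucose genes lower and none higher, and 3 hypoxia genes higher and 3 lower. The share called was 5% of the glucose list and 16.2% of the hypoxia list, against 8.72% of all genes. In limma 13 of the 40 glucose genes (32.5%) and 10 of the 37 hypoxia genes (27.0%) had an unadjusted p under 0.05. Over all genes 31.1% did. The largest were Txnip (−1.30, SE 0.14, adjusted p = 0.00077), Bhlhe40 (0.64, SE 0.07, adjusted p = 0.00077), Pdp1 (−0.36, SE 0.04, adjusted p = 0.0011), Angptl4, a secreted lipase inhibitor (−0.32, SE 0.05, adjusted p = 0.0051), Ero1a, an oxidase of the endoplasmic reticulum (0.31, SE 0.05, adjusted p = 0.0079), and Hif1an, the asparaginyl hydroxylase that blocks HIF from its coactivators (−0.29, SE 0.07, adjusted p = 0.039). Angptl4 and Ero1a are both known HIF targets, and they changed in opposite directions.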

How the data were processed

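RNA of 9 samples of MA-10 cells (3 groups of 3) was hybridised to Affymetrix whole-transcript arrays. The deposited table holds log2 values per probe (transcript cluster), made by the authors with RMA and Partek, per the submitters' processing notes, with versions and settings not given in the sources used here. RMA evens out the distributions of the arrays, which can shrink shifts shared by most genes.

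Of 35557 probes, 21789 carried a single gene symbol, 1621 several and 12147 none listed. The brightest single-symbol probe stood for a gene, which left 19938 genes, with no filter on dim ones. A group-means model of all 9 arrays was fitted with limma 3.58.1 in R 4.3.3 (moderated statistics, two-sided, Benjamini-Hochberg adjustment over the 19938 genes). A gene was called at an adjusted p under 0.05. The fit was tested on simulated data. Promoters were searched in Python 3.11.15 with pandas 2.3.3, and figures drawn with matplotlib 3.10.9.

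The members and lists were chosen with earlier results of these data known. Array values are given for members called in any comparison. They are also given for the HIF subunits, the Egln genes and Vhl, whatever their result. Of the other pathway lists up to 6 called genes a comparison are named. Array values printed for Slc2a1 and Kdm3a, and motif counts of single genes, were chosen after the values were seen. Alternatives were a block by replicate number, a filter at a mean log2 value of 5, quantile normalization, median centring, a trended robust prior, array weights, fits of the compared groups alone, the mean of a gene's probes, and each array left out in turn. Leaving out all arrays numbered 3 was added after seeing the data.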

Additional observations from a re-analysis of the deposited data

How the results depend on the processing

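Over the 18 alternatives to each of the members' log2 differences, the direction of a called difference never turned. Of these values 1833 kept their side of the threshold, 72 lost a call and 39 gained one. Members called higher with AICAR over forskolin numbered 7, and 12 with a trended robust prior, 14 with array weights and 1 (Ankrd37) with all arrays numbered 3 left out, which leaves 2 arrays a group and was chosen after seeing the data. Members called lower numbered 1, and 2 with the trended prior and 5 with array weights. Leaving out 1 array gave 5 to 8 higher and 1 to 3 lower. Against control the 5 higher became 8 with the trended prior, 8 with array weights and 3 without the arrays numbered 3, and the 4 lower became 0 after quantile normalization, 1 in the fit of the groups compared and 0 without the arrays numbered 3. Leaving out 1 array gave 4 to 5 higher and 0 to 5 lower. The 1 call after forskolin became 2 with array weights, 0 with median centring and 0 without the arrays numbered 3, and 0 to 1 with 1 array left out. The cause of these shifts was not tested, beyond the smaller number of arrays where arrays were left out.

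The count of all genes called moved more. After forskolin, 99 were higher (212 with array weights, 36 without the arrays numbered 3, 60 to 99 with 1 array left out) and 39 lower (61 with median centring, 69 with the trended prior, 224 with array weights, 7 without the arrays numbered 3, 13 to 45 with 1 array left out). With AICAR over forskolin, 195 were higher (454 after quantile normalization, 359 with median centring, 3075 with array weights, 50 in the fit of the groups compared, 20 without the arrays numbered 3, 62 to 1677 with 1 array left out) and 822 lower (2654, 446 and 221 with array weights, the compared groups and without the arrays numbered 3, and 425 to 1647 with 1 array left out). Against control, 606 were higher (3578, 149 and 58 under the same settings, 123 to 2675 with 1 array left out) and 1133 lower (3041, 609 and 319, and 525 to 2066). Of the fits that left out 1 array, the one without AICAR replicate 1 gave the highest counts of the AICAR comparisons. Scaling also moved the median differences. With AICAR over forskolin, quantile normalization took the median of all genes from 0.023 to 0.0509 and that of the members from 0.1089 to 0.1277. After forskolin, median centring took them from 0.0034 to −0.0273 and from −0.0465 to −0.0772.

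Arrays with the same replicate number deviated from their group means with correlations from −0.406 to 0.329, and other pairs with −0.304 to 0.491, so the numbers were not taken as pairing. With the replicate number as a block, 0 members were called after forskolin. With AICAR over forskolin the block gave 7 higher and 1 lower, and against control 0 lower in place of 4. Over all genes the block called 16 lower after forskolin, 66 higher and 517 lower with AICAR over forskolin, and 195 higher and 679 lower against control.

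With 3 arrays a group and differences of 0.1 to 0.3 on the log2 scale, many members fell near the threshold, so a missed call does not show that a gene stayed the same. Arrays report no protein, HIF activity or glucose flux, AICAR was measured only on top of forskolin, and there was 1 time point.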
